A study of Homo sapiens with 64 samples.

Results

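The genes described here mark where a cell lies between an epithelial and a mesenchymal state. They are 10 genes, CDH1, EPCAM, ESRP1, ESRP2, CDH2, VIM, ZEB1, ZEB2, SNAI1 and SNAI2, chosen by name and found by Ensembl identifier among the 54127 genes of the count tables. All 10 had exactly 1 row each.

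In an epithelium, E-cadherin (CDH1) joins neighbouring cells and EPCAM adds a further surface adhesion molecule, while the RNA-binding proteins ESRP1 and ESRP2 keep transcripts spliced in their epithelial form. The zinc-finger repressors ZEB1, ZEB2, SNAI1 (Snail) and SNAI2 (Slug) bind E-box motifs at epithelial genes such as CDH1 and lower their transcription, and cells in a mesenchymal state make vimentin (VIM), an intermediate filament protein, and N-cadherin (CDH2). In colorectal cancer, carcinoma cells can lie at either end or hold genes of both.

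The libraries come from 6 human colorectal cancer cell lines, HT55, SW948, RKO, SW48, DLD1 and HCT15, which the study assigned to 3 transcriptional subtypes, 2 lines to each. Cells were loaded with CFSE, a dye that binds protein and is diluted at each division, then grown for 6 days as non-adherent spheroids in medium with bFGF and EGF. Flow sorting then separated label-retaining cells (LRCs), which kept the dye and so had divided least, from the non-LRCs, labelled BULK, with 4 replicates of each population per line (48 libraries). A further 16 unsorted libraries labelled DLD1, 4 per group, were cells given CFSE or only its solvent DMSO and taken on day 1 or on a later day that the sample labels give as day 5 and the design text as day 6. Each line is a single established culture, and the study's methods describe the 4 replicates as biological. The labels do not say which step was repeated, so p-values measure only the spread between these samples.

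Counts on genes ranged from 12237225 to 20913455 per library (median 15063858), and 5.19% to 14.8% of reads fell outside genes. Within their own line, 6 of the 48 sorted libraries correlated better with the other population than with their own over all genes, HT55 BULK replicate 2, HT55 LRC replicate 2, HCT15 BULK replicate 2, HCT15 LRC replicate 4, SW48 LRC replicate 2 and SW948 LRC replicate 4. Among the controls, DMSO day 1 replicate 4 lay nearest to DMSO day 5 (r = 0.992, against 0.965 with its own group), and CFSE day 1 replicates 3 and 4 lay nearest to DMSO day 1. All 16 unsorted libraries labelled DLD1 were most like the sorted HCT15 libraries (r from 0.951 to 0.992 over 16899 genes) and less like the sorted DLD1 libraries (0.915 to 0.956), and the sorted libraries of these lines correlated with the other line's mean at 0.950 to 0.955. The line labels of the controls and of the sorted libraries therefore do not match in expression, and which of them carry the unmatched name was not tested. Comparisons within the controls, or within the sorted libraries of one label, do not set these libraries against each other.

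Markers of colorectal epithelium (7 genes, KRT8, KRT18, KRT19, KRT20, CDX2, VIL1 and LGALS4) summed to at least 1650 CPM (counts-per-million, scaled by the trimmed mean of M-values, TMM) in every BULK library of 5 lines and to only 199.9 to 236.9 CPM in RKO, where KRT19 was at 0.816 CPM and KRT8 at 75.1 CPM. The fibroblast list (7 genes) summed to at most 14.3 CPM in any library. Of the leukocyte list (5 genes), CD3E had no count in the BULK libraries of any line, and the high sums in SW948 and RKO came from LYZ (1375 CPM in SW948 BULK) and CD68 (1085 CPM in RKO BULK). These are cultured lines, so markers of other tissues are given as levels in the lines.

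RKO stood apart from each of the other 5 lines at 6 of the 10 genes. How many of all genes did so was not counted. CDH1 averaged 0.926 CPM in RKO BULK and ESRP1 was near its detection limit there, and both were far higher elsewhere. EPCAM was lower than in the other lines, ESRP2 was lower by a smaller step, and ZEB1 and VIM were higher than in the other lines. Within RKO BULK, VIM averaged 27.5 CPM, beside 16.2 CPM for EPCAM and 56.9 CPM for ESRP2. SNAI1 in RKO lay within the range of the other lines, and CDH2, ZEB2 and SNAI2 had no count in RKO BULK. Of the 10 genes, 7 had enough counts to be tested between the 24 BULK libraries, and all 7 differed between lines, as did 98.3% of the 15779 genes tested (edgeR quasi-likelihood test across all genes, Benjamini-Hochberg adjusted p under 0.05). Among neighbours in the order of levels, 19 of 35 pairs of lines differed at these genes. Neighbours were set by the order of the same values, so these are the smallest steps of each gene. Between any 2 lines, 49.4% to 78.3% of all genes were called, which is not a like background for neighbours.

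CDH1 (ENSG00000039068, chromosome 16, 68771195 to 68869440 on the plus strand of GRCh37) reads out as E-cadherin, the adhesion protein of the adherens junction. In BULK replicates 1 to 4 it was at 1375, 1318, 1254 and 1291 CPM in HT55, at 1054, 955, 1125 and 1190 CPM in DLD1, and at 1063, 865, 972 and 1090 CPM in HCT15. SW948 was at 656, 681, 639 and 620 CPM, and SW48 at 615, 433, 639 and 606 CPM. RKO held 1.2, 0.777, 1.10 and 0.626 CPM, from 16, 12, 14 and 10 counts, and did not overlap any other line. From SW48, the next line up, to RKO the pooled ratio was 646 (exact 95% interval 492 to 865, counting error only), and the fitted log2 difference was 9.29 (SE 0.18). HT55 exceeded DLD1 by 0.29 (SE 0.11), a step that was not called without replicate 1 (0.23, edgeR adjusted p = 0.141) or 3 (0.31, 0.0512) of every line and was -0.02 on unscaled library sizes. DLD1 and HCT15 did not differ beyond their spread (log2 difference 0.13, 95% interval -0.09 to 0.35), nor did SW948 and SW48 (0.17, -0.05 to 0.40).

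EPCAM (ENSG00000119888, chromosome 2, 47572297 to 47614740, plus strand), the epithelial cell adhesion molecule, kept a measurable level in RKO. Its BULK values there were 16, 17.7, 14.8 and 16.4 CPM, against 366, 374, 391 and 335 CPM in SW48 and 870, 914, 774 and 832 CPM in DLD1. HCT15 was at 895, 901, 891 and 939 CPM, SW948 at 1347, 1323, 1501 and 1370 CPM, and HT55 at 1548, 1553, 1584 and 1486 CPM. The lines ran in that order without overlap between RKO, SW48 and the rest, the step from SW48 to RKO was 4.50 on the log2 scale (SE 0.08), and only HCT15 and DLD1 were neighbours that did not differ beyond their spread (0.08, -0.06 to 0.23). The step from HT55 to SW948 (0.17, SE 0.07) was not called without replicate 1 (0.14, edgeR adjusted p = 0.205), 2 (0.15, 0.0770) or 4 (0.18, 0.0903), and was -0.08 on unscaled library sizes. Per transcript length, the mean CPM per kilobase of transcript (RPKM) of EPCAM, 997 in HT55 and 10.5 in RKO, exceeded that of CDH1, 272 and 0.192, in both lines.

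The 2 splicing regulators followed different orders. ESRP1 (ENSG00000104413, chromosome 8, 95653302 to 95719694, plus strand) fell into 3 tiers of BULK values. HT55 was at 251, 231, 250 and 233 CPM, SW948 at 236, 232, 261 and 233 CPM, and SW48 at 227, 134, 220 and 222 CPM. DLD1 held 21.5, 25.2, 22 and 17.7 CPM and HCT15 19.7, 26.2, 15.9 and 18.5 CPM, and RKO only 2, 1, 1 and 4 counts. The tiers did not overlap. SW48 and DLD1 differed by 3.21 on the log2 scale (SE 0.15), and the pooled HCT15 level was 166 times that of RKO (84.2 to 386), while neighbours inside a tier did not differ beyond their spread.

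ESRP2 (ENSG00000103067, chromosome 16, 68262936 to 68272005, minus strand), its paralogue, kept a substantial level in RKO, at 59.97, 57.4, 54.9 and 55.2 CPM in BULK. SW948, HT55, SW48 and HCT15 ranged together from 69.7 to 101 CPM, and DLD1 stood above at 169, 167, 188 and 183 CPM. DLD1 exceeded the next line, SW948, by 0.97 on the log2 scale (SE 0.09), and HCT15 exceeded RKO by 0.61 (SE 0.09), and no neighbour pair among the middle 4 lines differed beyond its spread. Per length, mean ESRP2 was 16.6 RPKM in RKO against 0.0361 RPKM for ESRP1, and 26.3 against 64 RPKM in HT55, so the more abundant paralogue was not the same one in the 2 lines. ESRP2 overlaps NFATC3 on the opposite strand (57865 counts over all libraries), and the strand setting of the counting was not given in the sources used here, so reads of the overlapping stretch cannot be told apart.

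VIM (ENSG00000026025, chromosome 10, 17270240 to 17279592, plus strand), the vimentin filament gene, was highest in RKO, with 27.9, 25.1, 27.3 and 29.9 CPM in BULK. DLD1 followed at 1.86, 2.04, 3.01 and 2.66 CPM, then HCT15 at 0.530, 0.872, 0.719 and 1.16 CPM and SW48 at 0.140, 0.538, 0.549 and 0.461 CPM. HT55 had 1, 2, 0 and 1 counts, and SW948 had no count in any of its 8 sorted libraries. RKO did not overlap another line, and its pooled level was 10.7 times that of DLD1 (8.98 to 12.8) and at least 534-fold higher than that of SW948, taking 3 counts over the SW948 group as its limit. All 5 neighbour steps passed the test, from 3.52 (RKO over DLD1, SE 0.20) to 0.90 (HCT15 over SW48, SE 0.35), and the step from HT55 to SW948 rests on 4 counts. That last step was not called without replicate 2 (2.79, edgeR adjusted p = 0.132) or 4 (3.32, 0.0640), nor the step from HCT15 to SW48 without replicate 1 (0.78, 0.0598), 2 (1.0, 0.0511) or 4 (0.73, 0.160). The antisense gene VIM-AS1 had 1837 counts over the 64 libraries beside 3809 for VIM, and without a stated strand setting the reads of the overlap cannot be told apart.

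ZEB1 (ENSG00000148516, chromosome 10, 31607424 to 31818742, plus strand), a repressor of CDH1, was high in RKO alone. RKO BULK libraries held 388, 411, 308 and 327 CPM, and no sorted library of another line exceeded 2.44 CPM. SW48 was at 1.26, 0.942, 0.305 and 0.844 CPM and HCT15 at 0.588, 0.748, 0.180 and 0.613 CPM. DLD1 had 2, 6, 6 and 6 counts, SW948 had 2, 3, 2 and 1, and HT55 had 0, 4, 0 and 0. The pooled RKO level was 431 times that of SW48 (325 to 585), a log2 step of 8.75 (SE 0.23), and the 5 low lines did not differ between neighbours beyond their spread. Low lines further apart in that order did differ, from few counts. HT55 lay below SW48 (log2 difference -3.30, edgeR adjusted p = 0.000111), and so did SW948 (-2.56, 0.000337). Mean ZEB1 in RKO was 60.4 RPKM, above VIM (12.8 RPKM) and EPCAM (10.5 RPKM) in the same libraries.

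VIM and ZEB1 are shown by the bases before their start sites. They are the genes of the set that were higher in RKO than in each other line, and the reference tables hold a promoter for both (RefSeq, GRCh38.p14, 250 bases up to the start). Capitals mark CAGGTG, an E-box of the kind that ZEB and Snail proteins bind, searched on both strands (CAGGTG or CACCTG). The VIM window, chr10:17227991-17228240 on the plus strand, holds no such motif, and the window of the most upstream of 7 ZEB1 starts, chr10:31318167-31318416 on the plus strand, holds 1, at position -57 from the start. Of the other 6 ZEB1 windows, 1 holds 2 such motifs, at -242 and -85, and 5 hold none.
VIM: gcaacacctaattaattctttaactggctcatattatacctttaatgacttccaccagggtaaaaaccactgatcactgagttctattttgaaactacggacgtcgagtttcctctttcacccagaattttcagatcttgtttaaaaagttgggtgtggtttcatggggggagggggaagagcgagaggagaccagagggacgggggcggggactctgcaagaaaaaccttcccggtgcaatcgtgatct
ZEB1: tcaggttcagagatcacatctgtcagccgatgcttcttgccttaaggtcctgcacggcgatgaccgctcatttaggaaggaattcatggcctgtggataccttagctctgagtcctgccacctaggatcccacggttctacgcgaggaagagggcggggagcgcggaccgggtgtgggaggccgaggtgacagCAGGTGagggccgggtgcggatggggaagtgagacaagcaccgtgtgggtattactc
The motif occurs in 17.5% of the 35116 promoter windows of the table, and a match describes letters only. CDH2 and ZEB2 also had an entry, with no such motif in any of their windows, and no promoter was matched for CDH1, EPCAM, ESRP1, ESRP2, SNAI1 and SNAI2.

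SNAI1 (ENSG00000124216, chromosome 20, 48599517 to 48605423, plus strand), which encodes Snail, was measured in all lines and did not set RKO apart. HT55 exceeded SW948, the lowest line, by 1.58 on the log2 scale (edgeR adjusted p = 3.25e-09). HT55 was highest at 16.6, 12.7, 17.3 and 21.3 CPM in BULK, and SW48 (12.5, 9.49, 11.3 and 8.91 CPM) and RKO (9.92, 10.7, 11.3 and 7.89 CPM) overlapped. DLD1 held 9.02, 6.84, 6.74 and 6.80 CPM, HCT15 7.18, 5.98, 6.65 and 4.90 CPM, and SW948 5.90, 5.18, 5.69 and 6.23 CPM. HT55 exceeded SW48 by 0.70 on the log2 scale (SE 0.16) and RKO exceeded DLD1 by 0.43 (SE 0.16), and the other 3 neighbour pairs did not differ beyond their spread. The step from RKO to DLD1 was not called without replicate 2 (0.36, edgeR adjusted p = 0.0744) or 3 (0.33, 0.163).

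CDH2, ZEB2 and SNAI2 were at or near 0 in almost all libraries. CDH2 (ENSG00000170558, chromosome 18, 25512843 to 25757910, minus strand), N-cadherin, had 126 counts in all, of which the sorted libraries labelled DLD1 held nearly all. Their BULK replicates had 18, 6, 13 and 16 counts and their LRC replicates 8, 15, 28 and 15, while HCT15 BULK had 1, 0, 0 and 1 and RKO had none. Pooled, DLD1 BULK exceeded HCT15 BULK 27.4 times (7.22 to 232) and RKO BULK at least 18.8-fold, so N-cadherin was not detected in the line with the most ZEB1 and VIM. ZEB2 (ENSG00000169554, chromosome 2, 145121931 to 145278624, minus strand) had 34 counts over 64 libraries, with 5, 1, 3 and 5 of them in DLD1 LRC and 0, 0, 1 and 0 in DLD1 BULK, and SNAI2 (ENSG00000019549, chromosome 8, 49830157 to 49834299, minus strand) had 25, at most 6 in a library. ZEB2 and SNAI2 were too low to be tested. Without the filter on low counts, edgeR called ZEB2 higher in LRCs in DLD1 (adjusted p = 0.0430). With the 6 lines fitted together it called both ZEB2 (edgeR adjusted p = 0.00499) and SNAI2 (0.0322) higher in LRCs. ZEB2 had no count in either population of HT55, SW948, RKO and SW48, so its call rests on DLD1 and on 4 LRC counts in HCT15. SNAI2 had no count in HT55 and at most 8 counts in any group of 4 libraries (DLD1 LRC).

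**Figure D1:**
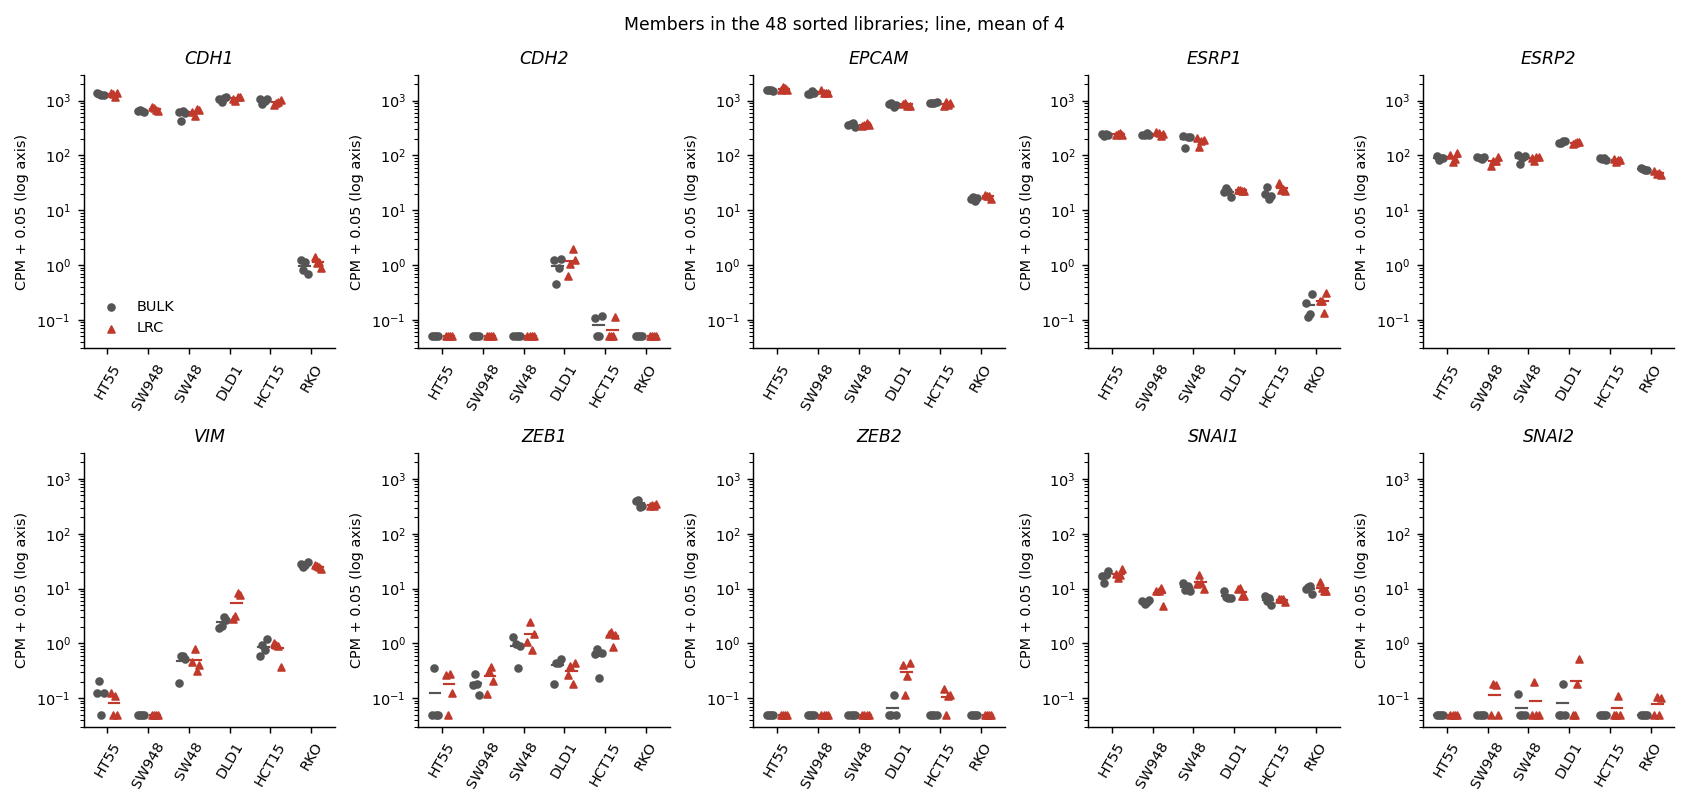
CPM on a log axis of the 10 genes in each of the 48 sorted libraries (points, BULK and LRC side by side for each line), with a small offset so that a library with no count can be drawn. RKO lies far below the other lines for CDH1, EPCAM and ESRP1 and far above them for ZEB1 and VIM, where its BULK libraries reach 411 and 29.9 CPM.

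Taken over the 6 line means of log2 CPM, CDH1 and ZEB1 ran opposite (Pearson r = -0.98) and CDH1 and EPCAM together (r = 0.97), but with RKO left out the 5 lines gave -0.51 and 0.58. Within groups, over the 48 libraries after subtracting each group's mean, the same pairs gave -0.19 and -0.02. ESRP1 and VIM kept a negative r without RKO (r = -0.87, and -0.96 with it), and EPCAM and ZEB1 did so too (-0.91 and -0.99). Other pairs turned, with ESRP2 and VIM at 0.73 without RKO (-0.26 with it) and CDH1 and VIM at 0.25 (-0.82). Outside RKO, ZEB1 averaged at most 0.837 CPM in BULK and VIM had no count in SW948, so values without RKO that involve these genes rest on few counts. SNAI1 correlated weakly with CDH1 over the line means (-0.11) and with VIM (-0.01). These are descriptions over 6 or 5 lines that share their libraries' depth and composition. The genes whose pattern over the 48 sorted libraries was most like CDH1, of 11487 with a mean log2 CPM of at least 1, were JUP (r = 0.995), KDF1 (0.994), RAB17 (0.994) and PTPN6 (0.994), and those most like VIM were ST3GAL1 (0.949), FBH1 (0.949), SHANK1 (0.947) and PIK3C3 (0.943), with rank orders that move under Spearman's measure (JUP was at place 403 and FBH1 at 11).

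**Figure D2:**
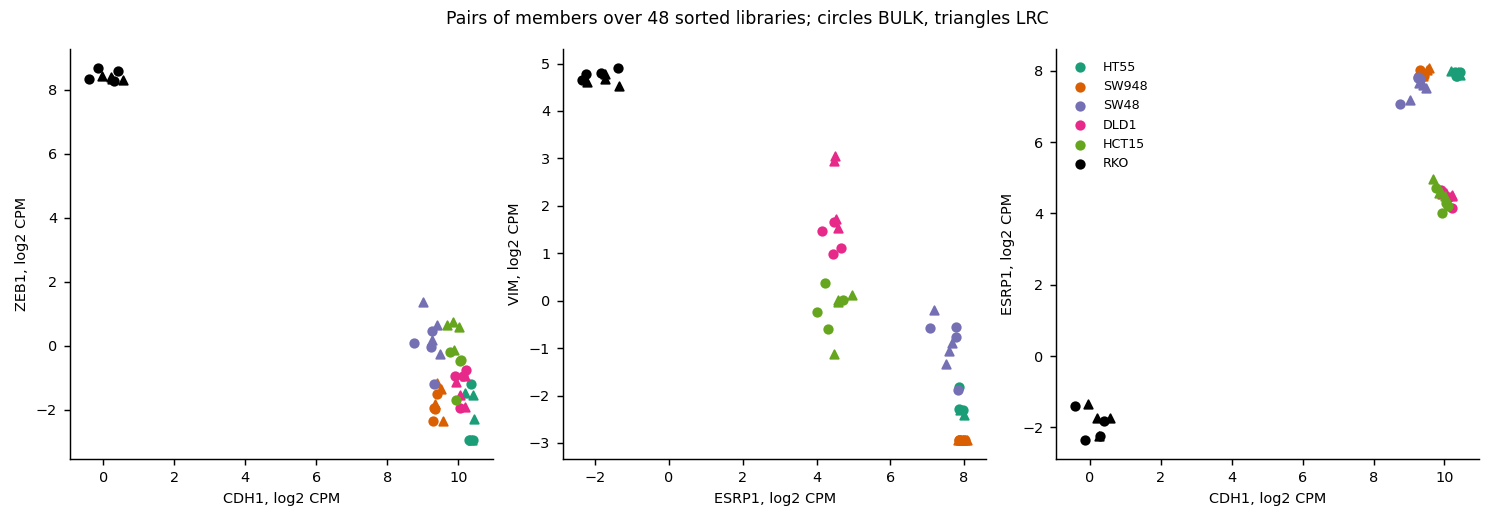
Log2 CPM of CDH1 against ZEB1, of ESRP1 against VIM and of CDH1 against ESRP1 in the 48 sorted libraries (circles BULK, triangles LRC, colours lines). The 8 RKO libraries form a group of their own in each panel, and the DLD1 and HCT15 libraries lie at high CDH1 but an intermediate level of ESRP1.

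Of 18 related epithelial genes, 16 were called lower in RKO BULK than in each of the other 5 lines, as were 4 of the 9 adherens junction partners and 3 of 12 tested mesenchymal genes, of which 4 were called higher than in each. The share of all genes called lower or higher in RKO than in each other line was not counted, so these counts have no background beside them. All 18 epithelial genes tested differed between lines, as did all 9 adherens junction partners and all 12 of 19 mesenchymal genes that had enough counts, against the 98.3% of all genes. GRHL2, an epithelial transcription factor, averaged 0.208 CPM in RKO BULK and 51.9 to 96.8 CPM in the other lines. JUP, the junction protein plakoglobin, averaged 0.705 CPM in RKO and at least 287 CPM elsewhere, whereas the catenins CTNNA1 (507 CPM in RKO) and CTNNB1 (466 CPM) stayed within the range of the other lines. Of the mesenchymal list, RKO BULK held the receptor AXL at 935 CPM (at most 4.70 CPM elsewhere). TGFBI, by contrast, was at 7471 CPM in HT55, a line of high CDH1, and at 0.77 CPM in RKO, and TWIST2 had no count in the BULK libraries of any line. The summed mesenchymal list was highest in HT55 (5880.2 to 8597.3 CPM) and RKO (4096.7 to 4386.3 CPM).

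Whether LRCs differed from non-LRCs in epithelial or mesenchymal state was examined within each line and across all 6. In bulk RNA of a sorted population, fewer cells of a type and less RNA per cell cannot be told apart. Few of the set's genes were called. Across lines SNAI1 rose in LRCs, in RKO ESRP2 fell, and in the libraries labelled DLD1 VIM rose. In HCT15 ZEB1 and ESRP1 passed with the replicate number as a block, and CDH1 and EPCAM passed no test of LRCs in any line. With the line as a term, 8 of the 10 genes had enough counts and 1 was called, beside 22.9% of all 16603 genes. Their median log2 change was 0.13, and that of all genes 0.01.

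SNAI1 was higher in LRCs than in BULK by 0.21 on the log2 scale across the 6 lines (SE 0.08, 95% interval 0.05 to 0.36, edgeR adjusted p = 0.0426). Its LRC replicates 1 to 4 were at 9.09, 8.99, 10.2 and 4.79 CPM in SW948, at 12.3, 17.8, 12.5 and 9.65 CPM in SW48, and at 9.62, 10.3, 7.17 and 7.16 CPM in DLD1. In HT55 they were at 18.1, 15.4, 17.6 and 22.7 CPM, in RKO at 13.2, 10.3, 9.01 and 8.96 CPM, and in HCT15 at 6.31, 6.32, 6.42 and 5.53 CPM. The populations overlapped in all 6 lines, since in SW948 the 3 higher LRC libraries lay above all BULK libraries and replicate 4 below them, and all 6 estimates were above 0, from 0.01 in HCT15 to 0.52 in SW948. The difference between lines was not past the threshold (edgeR adjusted p = 0.632). The call was lost without replicate 1 (0.22, edgeR adjusted p = 0.114), 2 (0.12, 0.328) or 3 (0.23, 0.0965) of every line, and without the line SW948 (0.15, 0.181), RKO (0.23, 0.0541), SW48 (0.18, 0.103) or DLD1 (0.20, 0.107). It was also lost without TMM scaling (0.20, edgeR adjusted p = 0.0585) and without the filter on low counts (0.20, 0.0708). With the replicate number as a block within each line the call stayed (0.20, edgeR adjusted p = 0.0264). Within SW948 alone the estimate of 0.52 (SE 0.20) was not called (edgeR adjusted p = 0.227), and became 0.72 (edgeR adjusted p = 0.00255) without LRC replicate 4, one of the libraries nearer to the other population.

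In RKO, where 41.5% of the 12731 genes tested were called, 1 of the 6 tested genes of the set was. ESRP2 fell by 0.26 on the log2 scale in RKO LRCs (SE 0.08, 95% interval -0.42 to -0.10, edgeR adjusted p = 0.0118). Its LRC values were 52.5, 46.7, 47.4 and 43.4 CPM, all below the 54.9 to 59.97 CPM of BULK. With all 48 sorted libraries in a single fit the change was -0.24 and not called (edgeR adjusted p = 0.0623). The genes that set RKO apart from the other lines were not called between its populations. ZEB1 was at 317, 340, 323 and 349 CPM in LRCs (log2 change -0.11, 95% interval -0.29 to 0.07), and VIM at 27.2, 25.5, 24.3 and 22.9 CPM (-0.14, -0.33 to 0.05). CDH1 had 16, 18, 13 and 16 counts in LRCs (0.21, -0.44 to 0.85), and ESRP1 had 2, 3, 1 and 5 and was not tested.

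In the sorted libraries labelled DLD1, 14.6% of 13592 genes were called (1978, or 4591 with the replicate block), and 1 of the 7 tested genes of the set. VIM was at 2.78, 3.16, 8.18 and 7.63 CPM in LRCs, against 1.86, 2.04, 3.01 and 2.66 CPM in BULK, a log2 difference of 1.21 (SE 0.36, 95% interval 0.41 to 2.01, edgeR adjusted p = 0.0482). LRC replicates 3 and 4 lay well above all BULK libraries, LRC replicates 1 and 2 lay near the upper end of BULK, and the groups overlapped. Each LRC library was above the BULK library of the same replicate number, and with the replicate number as a block the difference was 1.16 (edgeR adjusted p = 2.48e-05). Without the block, leaving out BULK replicate 1 (1.10, edgeR adjusted p = 0.129), 2 (1.14, 0.0909), 3 (1.34, 0.0714) or 4 (1.26, 0.0804), or LRC replicate 3 (0.93, 0.128) or 4 (1.0, 0.118), ended the call. The summed fibroblast markers were at 5.9 to 8.4 CPM in these BULK and 7.6 to 9.4 CPM in these LRC libraries, with LUM at 0 in both. The summed leukocyte markers were at 2.09 to 6.64 CPM in these BULK and 5.16 to 14.5 CPM in these LRC libraries, of which CD68 made up a mean of 2.91 and 8.05 CPM, while CD3E was at 0 in both. The part of these lists in the VIM difference was not tested. CDH2 (0.37, 95% interval -0.53 to 1.26) and CDH1, at 1062, 972, 1178 and 1174 CPM in LRCs (0.04, -0.14 to 0.23), were not called.

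In HCT15, 0.977% of 14017 genes were called (137, or 2987 with the replicate block), and none of the 7 tested genes of the set without the replicate block. ZEB1 nevertheless separated the populations, at 1.44, 1.56, 0.795 and 1.37 CPM in LRCs (30, 23, 13 and 21 counts) and 0.588, 0.748, 0.180 and 0.613 CPM in BULK (10, 12, 3 and 9 counts), with no overlap. The log2 difference was 1.3 (SE 0.37, 95% interval 0.47 to 2.12, unadjusted p = 0.0055 and edgeR adjusted p = 0.131), and it passed with the replicate number as a block (1.31, edgeR adjusted p = 0.00521) and with all 48 sorted libraries in a single fit (1.29, edgeR adjusted p = 0.0348). ESRP1, at 31.2, 23.7, 24 and 22.3 CPM in LRCs, differed by 0.36 (SE 0.16, edgeR adjusted p = 0.286), and passed with the block (0.37, edgeR adjusted p = 0.0302). Its populations overlapped, since BULK replicate 2 was at 26.2 CPM. The leukocyte markers summed to 4.14 to 10.3 CPM in HCT15 BULK and 10.5 to 29.1 CPM in HCT15 LRC, mostly CD68 (means 6.01 and 20.7 CPM), with CD3E at 0, and their part in these differences was not tested. VIM held 0.963, 0.883, 0.856 and 0.325 CPM in HCT15 LRCs (-0.07, -0.87 to 0.74).

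In SW48, 0.796% of 13196 genes were called (105, or 1279 with the replicate block) and none of the 6 tested genes of the set, with ZEB1 at 1.01, 2.44, 0.702 and 1.46 CPM in LRCs (0.77, 95% interval -0.24 to 1.79) and CDH1 at 616, 519, 712 and 678 CPM (0.15, -0.16 to 0.46). In HT55 and in SW948 0.0% of genes were called by edgeR, although 1005 of 13391 and 2350 of 13674 genes had an unadjusted p under 0.05 and DESeq2 called 37 and 244. Of the set, 5 genes were tested in each. CDH1 was at 1361, 1340, 1165 and 1390 CPM in HT55 LRCs (0.01, -0.20 to 0.22) and at 760, 735, 677 and 650 CPM in SW948 LRCs (0.13, -0.03 to 0.28), and both overlapped their BULK libraries.

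The LRC difference of a gene was also tested for whether it varied between lines, which 14.3% of the 16603 genes did (2380, or 5584 with the replicate block). None of the 8 tested genes of the set was called (edgeR adjusted p = 0.0613 for ZEB1 and 0.0719 for VIM, with an unadjusted p under 0.05 for both). With the replicate number as a block within each line, both passed (edgeR adjusted p = 0.0138 for ZEB1 and 0.0112 for VIM). Across lines VIM differed by 0.29 (SE 0.17, edgeR adjusted p = 0.234), and by -0.12 without DLD1. ZEB1 differed by 0.19 (SE 0.14, edgeR adjusted p = 0.327), and by 0.74 without RKO (edgeR adjusted p = 0.0408), whose LRC and BULK libraries hold nearly all of its counts. ESRP2 differed by -0.08 (SE 0.04), ESRP1 by 0.07 (SE 0.06), CDH1 by 0.05 (SE 0.05) and EPCAM by 0.04 (SE 0.03), and none was called.

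**Figure D3:**
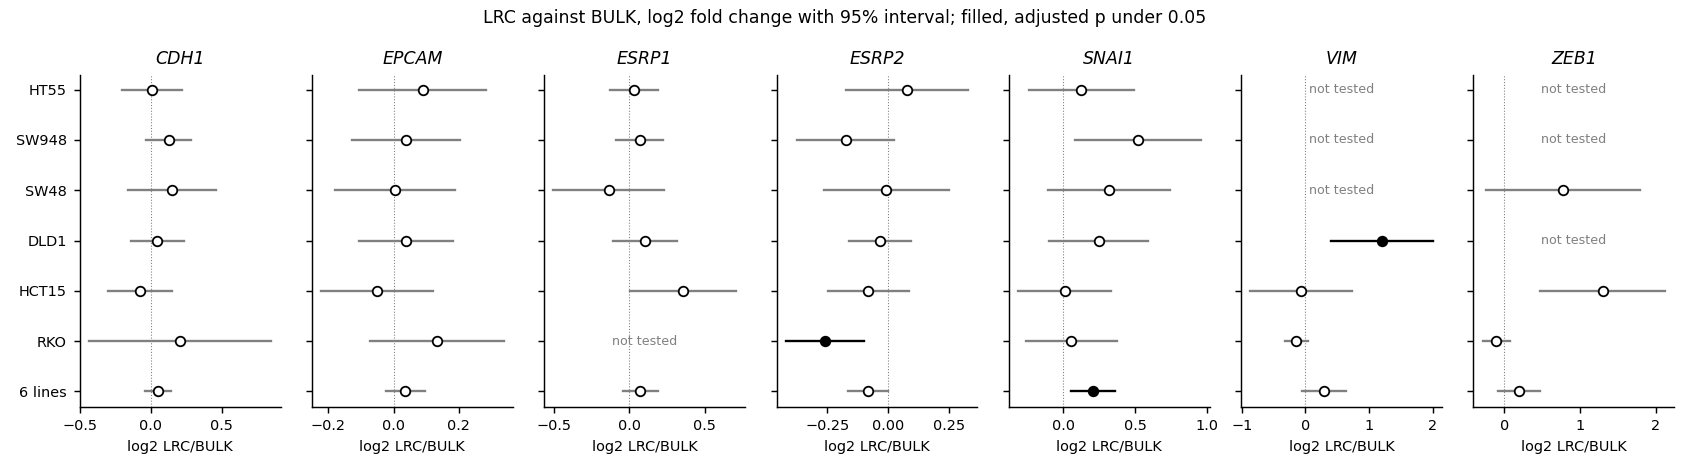
Log2 fold change of LRC over BULK with its 95% interval for 7 genes in each line and across the 6 lines, filled where the adjusted p was under 0.05. The filled points are ESRP2 in RKO (-0.26), VIM in DLD1 (1.21) and SNAI1 across lines (0.21), and CDH1 and EPCAM intervals include 0 in every line.

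Genes of all 3 related lists were called in LRCs. Across lines, where 22.9% of all genes were called, 6 of 18 epithelial genes rose and 1 fell, with a median of 0.10 against 0.01 for all genes, among them the epithelial transcription factors ELF3 (0.46, SE 0.09) and KLF4 (0.38, SE 0.07) and the protease inhibitor SPINT1 (0.15, SE 0.04). Of 9 adherens junction partners, 1 rose, NECTIN4 (0.64, SE 0.14, a nectin of epithelial cells). Of 14 tested mesenchymal genes 4 rose and 1 fell, with a median of 0.28, including ACTA2 (smooth muscle actin, 0.84, SE 0.16), FN1 (fibronectin, 0.97, SE 0.20) and MSN (moesin, 0.82, SE 0.23). FN1 averaged at most 5.21 CPM in any BULK group, and MSN averaged below 1 CPM in every BULK group but that of RKO. The test for a difference between lines called 3 of the 18 epithelial genes, NECTIN4 of the partners and 4 of the 14 mesenchymal genes, beside 14.3% of all genes. ACTA2 varied (edgeR adjusted p = 5.1e-10), at 2.51 in RKO and 0.32 in HCT15, as did NECTIN4 (1.72e-05), at 0.06 in SW948. Their means over lines therefore do not describe each line. In RKO, beside 41.5% of all genes, 4 of 11 tested epithelial genes rose and 1 fell, with CDH3 (P-cadherin) at 1.5 (SE 0.22) and CDH17 (intestinal cadherin) at 1.2 (SE 0.31), while of the mesenchymal genes AXL fell (-0.58, SE 0.08) and ACTA2 rose (2.51, SE 0.16). Of the 9 adherens junction partners in RKO, 2 rose and 3 fell, with CTNND1 up (0.32, SE 0.07) and NECTIN1 down (-0.37, SE 0.09). NECTIN4 rose in RKO (3.20, SE 0.63) and SW48 (1.93, SE 0.27), and in the libraries labelled DLD1 (0.40, SE 0.10). In the libraries labelled DLD1, 14.6% of all genes were called and 5 of 18 epithelial genes rose, led by ELF3 (0.76, SE 0.07). None of the 11 tested mesenchymal genes was called there. In HCT15 the only list gene called was PRRX1, a mesenchymal transcription factor, which fell by 1.05 on the log2 scale (SE 0.15). In the 3 lists no gene was called in HT55 or SW948, where edgeR called none of any kind.

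The unsorted controls labelled DLD1 address what time in culture and the dye alone do to these genes. Between day 1 and label day 5, CDH1 and VIM rose while ESRP1 and ZEB1 fell in both the DMSO and the CFSE arm, and SNAI1 fell in the CFSE arm, from very high values in 2 day 1 libraries. The dye itself went with higher SNAI1 and ZEB1 on day 1 and with no called gene of the set on label day 5. The 4 contrasts share groups of libraries, so their values are set side by side. In the controls 7 of the 10 genes were tested. Of 14518 genes, 25.5% were called between days in the DMSO arm (1793 higher, 1902 lower) and 39.3% in the CFSE arm (2935 and 2771). Without TMM scaling those splits were 714 and 2398, and 1967 and 3484. The median log2 change of all genes was then -0.09 in both arms, beside 0.04 with DMSO and 0.02 with CFSE under TMM.

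CDH1 was at 434, 456, 513 and 1024 CPM in DMSO day 1 and 1241, 1040, 1192 and 1021 CPM in DMSO day 5, and at 514, 527, 493 and 484 CPM in CFSE day 1 and 799, 837, 840 and 934 CPM in CFSE day 5. Replicate 4 of DMSO day 1 lay among the later libraries, as it did over all genes, and in the CFSE arm the days did not overlap. The log2 rise was 0.85 (SE 0.20, edgeR adjusted p = 0.0104) with DMSO and 0.68 (SE 0.20, edgeR adjusted p = 0.0131) with CFSE. Without DMSO day 1 replicate 4 the rise with DMSO was 1.14, and without CFSE day 1 replicates 1 and 2 that with CFSE was 0.68 and no longer called (edgeR adjusted p = 0.0734).

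EPCAM rose in the DMSO arm by 0.45 (SE 0.14, edgeR adjusted p = 0.0297), from 605, 658, 614 and 876 CPM to 1263, 929, 881 and 796 CPM, with overlap between the days through DMSO day 1 replicate 4. The call was lost without DMSO day 1 replicate 1 (0.40, edgeR adjusted p = 0.103), 2 (0.43, 0.0866) or 3 (0.40, 0.0934) or without DMSO day 5 replicate 1 (0.26, 0.145). In the CFSE arm the values were 627, 592, 663 and 706 CPM and then 805, 904, 751 and 855 CPM, which did not overlap, and the difference of 0.28 (95% interval -0.01 to 0.58, edgeR adjusted p = 0.120) was not called.

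The splicing regulators fell. ESRP1 was at 30.3, 30.5, 23.7 and 19.7 CPM in DMSO day 1 and 18.6, 13.4, 14.1 and 17.8 CPM in DMSO day 5, and at 22.6, 21.9, 22.2 and 19.6 CPM and then 12.8, 12.3, 15.6 and 14.6 CPM with CFSE. The days did not overlap in either arm, and ESRP1 fell by 0.75 (SE 0.16, edgeR adjusted p = 0.00778) and by 0.72 (SE 0.16, edgeR adjusted p = 0.00270) on the log2 scale. ESRP2 fell by 0.35 (SE 0.12, edgeR adjusted p = 0.0330) in the CFSE arm, from 104, 103, 116 and 112 CPM to 93.0, 81.1, 95.9 and 89.3 CPM without overlap. That call was lost without CFSE day 1 replicate 1 (-0.36, edgeR adjusted p = 0.0554), 3 (-0.32, 0.0723) or 4 (-0.35, 0.0538), or CFSE day 5 replicate 2 (-0.30, 0.0973) or 4 (-0.34, 0.0712). In the DMSO arm it went from 98.3, 98.0, 104 and 101 CPM to 67.3, 73.2, 96.2 and 102 CPM, which overlapped, and -0.28 (edgeR adjusted p = 0.0951) was not called, but -0.36 was without DMSO day 1 replicate 4 (edgeR adjusted p = 0.0361) and -0.40 without DMSO day 5 replicate 4 (edgeR adjusted p = 0.0230).

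VIM rose from very low counts. It was at 0.105, 0.0618, 0.229 and 0.592 CPM in DMSO day 1 and 0.630, 0.868, 0.523 and 0.573 CPM in DMSO day 5 (18 and 40 counts in all), and at 0.252, 0.316, 0.192 and 0.242 CPM and then 0.574, 0.869, 0.532 and 0.860 CPM with CFSE (17 and 46 counts). DMSO day 1 replicate 4 again lay among the later libraries, and the CFSE days did not overlap. The log2 rises were 1.3 (SE 0.47, edgeR adjusted p = 0.0496) and 1.40 (SE 0.47, edgeR adjusted p = 0.0249), and without DMSO day 1 replicate 4 the first was 2.10 (edgeR adjusted p = 0.00152). Leaving out any other single control library ended the DMSO call (1.01 to 1.40), and leaving out CFSE day 1 replicate 1 (1.41), 3 (1.3) or 4 (1.36) or CFSE day 5 replicate 2 (1.29) or 4 (1.3) ended the CFSE call.

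ZEB1 was at 1.31, 1.48, 1.26 and 0.484 CPM in DMSO day 1 and 0.560, 0.668, 0.407 and 0.445 CPM in DMSO day 5, and at 3.27, 2.66, 1.67 and 1.65 CPM in CFSE day 1 and 0.574, 0.683, 0.958 and 0.491 CPM in CFSE day 5. The days overlapped with DMSO only through day 1 replicate 4, and not with CFSE. It fell by 1.16 (SE 0.39, edgeR adjusted p = 0.0384) and by 1.82 (SE 0.36, edgeR adjusted p = 0.00128) on the log2 scale, and without DMSO day 1 replicate 4 the first was -1.49. Leaving out any of the other 7 DMSO libraries ended the DMSO call (-1.3 to -1.01). On day 1 every CFSE value lay above every DMSO value, a difference of 1.06 (SE 0.34, edgeR adjusted p = 0.0336, beside 21.8% of all genes called). It was not called without CFSE day 1 replicate 1 (0.83, edgeR adjusted p = 0.134) or 2 (0.99, 0.0966), without both (0.57, 0.508), or without DMSO day 1 replicate 3 (1.12, 0.0547) or 4 (0.75, 0.0815).

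SNAI1 gave the widest spread of the set within a group. In CFSE day 1 it was at 245, 222, 9.75 and 7.74 CPM, against 2.88, 3.96, 2.47 and 1.94 CPM in DMSO day 1, 1.82, 3.0, 1.63 and 2.93 CPM in DMSO day 5 and 3.59, 3.48, 2.82 and 2.33 CPM in CFSE day 5. All 4 CFSE day 1 libraries lay above all others, replicates 1 and 2 by far. The difference from DMSO on day 1 was 5.49 (SE 0.90, edgeR adjusted p = 0.00147), and 1.66 (edgeR adjusted p = 0.0138) without CFSE day 1 replicates 1 and 2. Between days in the CFSE arm it fell by 5.41 (SE 0.90, edgeR adjusted p = 0.00044), and the change without these replicates was -1.64 (edgeR adjusted p = 0.00441). The day difference with DMSO was -0.30 (95% interval -2.26 to 1.66, edgeR adjusted p = 0.834). The test of whether the dye difference changed between days, which called 0.999% of all genes, gave -5.11 for SNAI1 (SE 1.26, edgeR adjusted p = 0.0594), and -5.50 without CFSE day 1 replicate 3 (edgeR adjusted p = 0.0187) or 4 (-5.50, 0.0150) and -4.88 without DMSO day 1 replicate 4 (0.0463). Reads outside genes took 8.96% to 14.8% in the day 1 controls and 5.19% to 8.35% on label day 5, and their part in these differences was not tested.

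On label day 5, the time nearest to the sort, CFSE and DMSO libraries differed at 5.13% of all genes and at none of the 7 tested genes of the set. The nearest to a call was CDH1 (-0.40, 95% interval -0.81 to 0.02, edgeR adjusted p = 0.228), which passed at -0.39 (edgeR adjusted p = 0.0178) without DMSO day 1 replicate 4, a library that enters only through the shared spread. ZEB1 differed by 0.40 (95% interval -0.46 to 1.26), SNAI1 by 0.38 (-1.58 to 2.34) and VIM by 0.13 (-0.74 to 1.0), intervals too wide to show that the dye leaves these genes as they are.

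**Figure D4:**
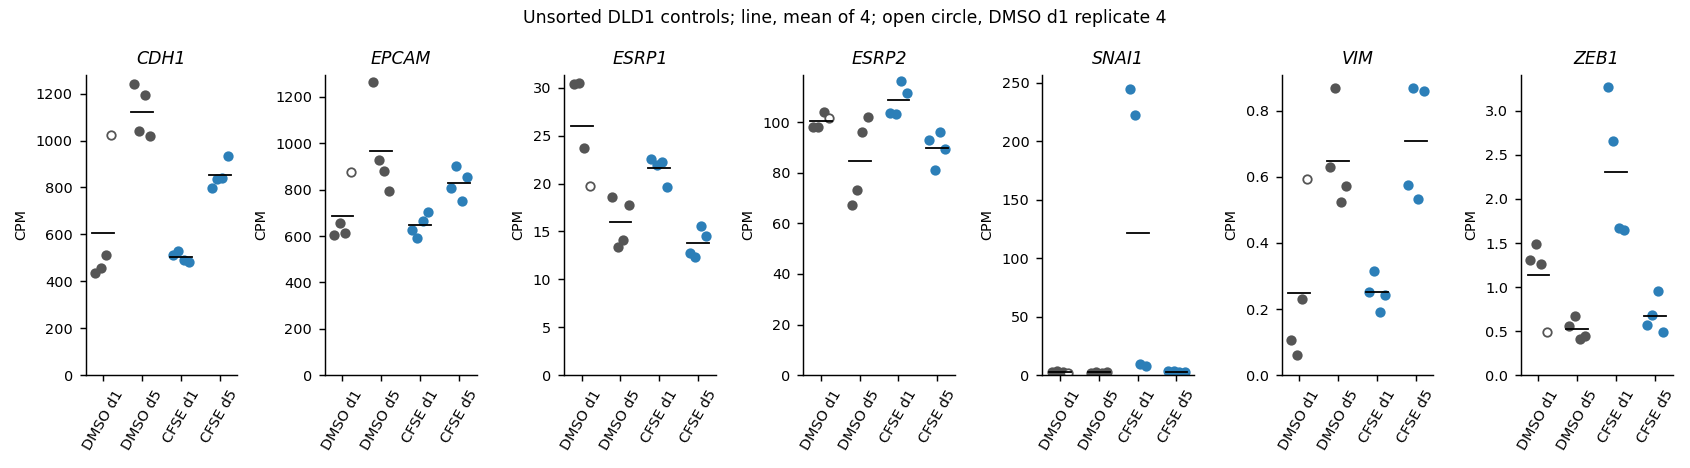
CPM on a linear axis of the 7 tested genes of the set in the 16 unsorted control libraries (points, 4 per group of DMSO or CFSE at day 1 or label day 5). CDH1 and VIM are higher and ESRP1 and ZEB1 lower at the later day, DMSO day 1 replicate 4 lies with the later libraries, and SNAI1 in CFSE day 1 splits into 245 and 222 CPM and 9.75 and 7.74 CPM.

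Among the related genes, 6 of 18 epithelial genes rose and none fell between the days in the DMSO arm (25.5% of all genes called), and 5 rose and 3 fell in the CFSE arm (39.3%). Without TMM scaling 4 rose with DMSO, and 4 rose and 3 fell with CFSE. RAB25, an epithelial trafficking GTPase, rose by 0.58 (SE 0.11) and 0.86 (SE 0.11), and CDH3 by 0.67 (SE 0.15) and 1.06 (SE 0.15), while ELF3 fell by 2.39 (SE 0.43) with CFSE. Of the 9 adherens junction partners 2 rose with DMSO and 4 with CFSE, and none fell, with NECTIN2 up by 0.52 (SE 0.13) and 0.38 (SE 0.13), and without TMM scaling 1 rose in each arm. Of 9 tested mesenchymal genes 2 rose and 1 fell with DMSO, and 6 rose and 2 fell with CFSE (1 and 1, and 5 and 2, without TMM scaling), including S100A4 (0.59, SE 0.17, and 0.96, SE 0.17) and COL1A1 (-0.94, SE 0.30, and -1.39, SE 0.31). On day 1, ELF3 (1.98, SE 0.42) was higher and RAB25 (-0.64, SE 0.11) lower with CFSE, with 4 epithelial genes higher and 4 lower in all, beside 21.8% of all genes called.

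Set side by side with the sorted cells, the unsorted day 5 controls resembled HCT15 at the genes of the set that part the lines. ESRP2 was at 67.3 to 102 CPM in the day 5 controls, at 82.8 to 91.6 CPM in HCT15 BULK and at 167 to 188 CPM in DLD1 BULK. VIM was at 0.523 to 0.869 CPM, at 0.530 to 1.16 CPM and at 1.86 to 3.01 CPM in the same order, and CDH2 had at most 2 counts in any control or HCT15 library but 6 to 18 in DLD1 BULK. Beyond the set, TGFBI averaged 9.70 and 26.1 CPM in CFSE and DMSO day 5, 36.8 CPM in HCT15 BULK and 488 CPM in DLD1 BULK. Sorting, dye, time and line label cannot be told apart between these libraries, and no test was made between them.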

How the data were processed

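The deposited files hold raw counts of reads per Ensembl gene, made by the authors from 50-base single-end reads aligned to hg19. TopHat, HTSeq and DESeq are named without versions in the submitters' processing notes, and the annotation and strand setting were not given in the sources used here. Rows of reads outside genes were left out. Symbols matched 87.0% of identifiers, and positions and canonical transcript lengths came from GENCODE v44lift37. CPM used TMM factors over the 64 libraries, and log2 CPM a prior count of 2.

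Tests were edgeR 4.0.16 quasi-likelihood fits in R 4.3.3 on the deposited counts, over genes that reached 10 counts in 4 or more libraries, with Benjamini-Hochberg adjustment over all genes tested and a threshold of 0.05. Levels used the 24 BULK libraries. LRC was set against BULK within each line and across lines with line as a term, and the 16 controls were fitted together. The genes, lists and tests were chosen with earlier results of these data known. The genes of the set were named in full, and of each list up to 3 genes with the lowest adjusted p, some of which are not reported here. Some values were described after they were seen (the library and line likeness, the counts of CDH2 and ZEB2, and the marker and list levels).

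Same-numbered LRC and BULK libraries deviated together in HT55, SW48, DLD1 and HCT15 (all 4 pairs above r = 0.1, mean 0.35, 0.38, 0.35 and 0.48), not in RKO and in 2 of 4 pairs in SW948, which pairs the numbers in the first 4 lines. Alternatives were library size without TMM, DESeq2 size factors, no filter, DESeq2 1.42.0, the replicate block, a single fit of the 48 sorted libraries, LRC in place of BULK, left-out replicates, lines and libraries. The fits were tested on simulated data. Pooled count ratios carry exact 95% intervals, and 3 counts over a group set the limit of a count of 0, both for counting error only.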

Additional observations from a re-analysis of the deposited data

Results flagged for a closer look

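In 13 of 111 groups of 4 libraries and genes, 1 library lay far from the other 3 on the log2 CPM scale, where chance alone does so in about 1 in 20 groups. The other 49 of 160 groups, with at most 3 counts in every library, were not looked at. SW48 BULK replicate 2 was low for CDH1 (433 CPM, others 606 to 639) and for ESRP1 (134 CPM, others 220 to 227), and SW48 LRC replicate 2 was low for ESRP2 (77.6 CPM, others 91.6 to 92.9). SW48 BULK replicate 1 was low for VIM (0.140 CPM, others 0.461 to 0.549). In SW948, LRC replicate 1 was high for EPCAM (1569 CPM, others 1354 to 1375), BULK replicate 3 was high for ESRP1 (261 CPM, others 232 to 236), and LRC replicate 4 was low for SNAI1 (4.79 CPM, others 8.99 to 10.2). HCT15 LRC replicate 4 was low for VIM (0.325 CPM, others 0.856 to 0.963) and for SNAI1 (5.53 CPM, others 6.31 to 6.42). In DLD1, BULK replicate 1 was low for ZEB1 (0.133 CPM, others 0.392 to 0.469) and high for SNAI1 (9.02 CPM, others 6.74 to 6.84). DMSO day 1 replicate 4 was low for ZEB1 (0.484 CPM, others 1.26 to 1.48), and HT55 BULK replicate 2 was the only library of its group with a ZEB1 count (0.306 CPM). SW948 LRC replicate 4, HCT15 LRC replicate 4, SW48 LRC replicate 2, HT55 BULK replicate 2 and DMSO day 1 replicate 4 are among the 9 libraries that lay nearest to another group over all genes. The other libraries named here are not among them.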

How the results depend on the processing

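Of the fold changes recomputed for the genes of the set under the alternatives, 1597 kept their direction and their side of the threshold, 87 lost and 23 gained a call and 67 turned direction, all 67 from values that were not called or steps between neighbouring lines. The cause of these moves was not tested. Depth limits CDH2, ZEB2, SNAI2, VIM outside RKO and ZEB1 outside RKO, and line labels and the sorting of 6 libraries limit the comparisons of populations. Alternatives that left out CFSE day 1 replicates 1 and 2, or the libraries nearest to another group, were chosen after seeing the data.

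The number of genes of the set called across lines, 1, was 0 without TMM scaling and without SW948, SW48 or DLD1, 2 without the filter and without HT55, and 0 to 1 with a replicate left out. For the day difference with DMSO, 5, it was 3 without TMM, 2 without the filter and 2 to 6 with a library left out. For CFSE against DMSO on day 1, 2, it was 1 without the filter or without CFSE day 1 replicates 1 and 2, and 1 to 2 with a library left out, and on label day 5, 0, it was 0 to 1. For the change of the dye difference between days, 0, it was 1 without the filter and by DESeq2, and 0 to 1. For the LRC difference between lines, 0, it was 2 without the filter, with the replicate block, by DESeq2 and without the 6 libraries nearest to the other population, and 0 to 2. In SW948, 0, it was 1 without the filter or without LRC replicate 4, and 0 to 1. In RKO, 1, it was 0 in a single fit of 48 libraries, in DLD1, 1, it was 2 without the filter and 0 to 1, and in HCT15, 0, it was 2 with the block and 1 in the single fit.

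Over all genes, the block moved the calls from 0 to 501 in SW948 and from 5279 to 4738 in RKO. Same-numbered libraries passed r = 0.1 in 2 pairs in SW948 and in 0 in RKO. For CFSE against DMSO on label day 5 the block moved the calls from 745 to 1511. Same-numbered libraries of those groups correlated at a mean r of 0.27, with 3 pairs above r = 0.1. Of the 4 BULK libraries of a line, those that correlated best with the LRC library of their own number were 4 in HT55 and in SW48. They were 3 in DLD1, 2 in HCT15 and in SW948, and 0 in RKO. DESeq2 called 361 in SW48 (105 by edgeR), 531 in HCT15 (137), 1521 on label day 5 (745) and 623 for the dye difference between days (145). Without DMSO day 1 replicate 4, 6077 genes were called between days with DMSO (3695 with it). The blocked fits in HT55, SW48, DLD1 and HCT15 changed no call of the set other than ZEB1 and ESRP1 in HCT15, which passed (2 genes called).

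Turned log2 values were VIM across lines at -0.12 without DLD1, and without CFSE day 1 replicates 1 and 2 VIM at -0.157 and EPCAM at 0.0206 for the dye on day 1. In SW48 LRCs EPCAM was -0.0605 without TMM, -0.000204 with DESeq2 size factors, -0.0116 without the filter and -0.000511 by DESeq2, and in HT55 LRCs CDH1 was -0.00908 without TMM. SNAI1 in HCT15 LRCs was -0.00187 in the single fit, and without libraries nearest to the other population ESRP2 in SW48 was 0.0509 and VIM in HCT15 0.20. Without TMM the steps were -0.0216 (CDH1, HT55 over DLD1), -0.0798 (EPCAM, HT55 over SW948), -0.23 (ESRP1, HT55 over SW948), and for ESRP2 0.24 (SW948 over HT55), -0.20 (HT55 over SW48) and -0.15 (SW48 over HCT15). With LRC in place of BULK they were -0.00206 (EPCAM, HCT15 over DLD1), -0.0454 (ESRP1, HT55 over SW948), -0.13 (ESRP1, DLD1 over HCT15) and -0.41 (SNAI1, HCT15 over SW948).

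With a library or replicate left out, values that crossed 0 ranged as follows. LRC differences ran from -0.0868 to 0.647 for CDH2 across lines, -0.0209 to 0.0669 for CDH1 and -0.0138 to 0.164 for ESRP2 in HT55, -0.0121 to 0.0772 for EPCAM in SW948, and -0.0698 to 0.125 for SNAI1 in RKO. They ran from -0.116 to 0.0527 for ESRP2 and -0.0353 to 0.0360 for EPCAM in SW48, from -0.00937 to 0.102 for CDH1, -0.0593 to 0.000867 for ESRP2 and -0.00568 to 0.0775 for EPCAM in DLD1, and from -0.227 to 0.165 for VIM and -0.0844 to 0.0923 for SNAI1 in HCT15. Dye differences on day 1 ran from -0.254 to 0.864 (VIM), -0.347 to 0.0949 (CDH1) and -0.101 to 0.0369 (EPCAM), and on label day 5 from -0.0379 to 0.196 (ESRP2), and their changes between days from -0.722 to 0.386 (VIM), -0.196 to 0.0472 (ESRP2) and -0.0596 to 0.200 (ESRP1). Steps between lines ran from -0.0304 to 0.0310 for ESRP1 from HT55 to SW948, and for ESRP2 from -0.0419 to 0.0335 (SW948 to HT55), -0.0512 to 0.0483 (HT55 to SW48) and -0.00916 to 0.144 (SW48 to HCT15).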

Other observations

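The 2 CFSE day 1 libraries with the highest SNAI1 also stood out at other genes. Over the 16 control libraries, the genes most like SNAI1 of 11667, chosen after its values were seen, were RGS2 (r = 0.991), RND1 (0.990), BPGM (0.981), GADD45B (0.978), NR4A2 (0.977) and ZBTB43 (0.976). GADD45B, a stress-induced gene, had a geometric mean of 440.8 CPM in CFSE day 1 replicates 1 and 2 and of 29.8 CPM in replicates 3 and 4. NR4A2, an immediate-early nuclear receptor, was at 78.0 and 15.2 CPM, RND1, a small GTPase, at 49.6 and 3.92 CPM, and RGS2, a regulator of G protein signalling, at 30.8 and 3.31 CPM.

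Outside the set, the lists placed the lines differently from ZEB1 and VIM. HT55 and SW948 held LGALS4 at 614 and 982 CPM and KRT20, a keratin of differentiated intestinal cells, at 651 and 831 CPM in BULK, and SW48 and RKO held KRT20 at 0.323 and 0.150 CPM. PTPRC, the common leukocyte antigen CD45, was at 15.5 CPM in SW48 BULK and had no count in RKO BULK. S100A4 was at 123 CPM in SW48 and 108 CPM in HT55 but at 0.207 CPM in RKO. MSN was at 28 CPM in RKO BULK and below 1 CPM in the other 5 lines, where the highest mean was 0.655 CPM in SW948.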
